A study of Mus musculus with 9 samples.

Results

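Complex I (NADH:ubiquinone oxidoreductase), the entry enzyme of the respiratory chain, was read through the transcripts of its subunits in the cardiac outflow tract of mouse embryos. The 43 genes were taken by symbol from the 48397 symbols counted: 36 Nduf genes of the series a, b, c, s and v followed by a number, which are encoded in the nucleus, and the 7 mt-Nd genes, which are encoded in mitochondrial DNA. Gene expression was measured by RNA sequencing of total RNA, with libraries made by a low-input SMART-Seq kit. All samples were outflow tracts dissected at embryonic day 12.5 on the C57BL/6J background. There were 4 wild-type libraries (Nkx2-5+/+) and 5 libraries homozygous for a deletion of the enhancer that drives the cardiac transcription factor gene Nkx2-5 in the anterior second heart field (genotype Nkx2-5delta-enh/delta-enh, called the deletion). The labels give neither how the deletion line was derived nor whether each sample was 1 embryo, so p-values measure only how far these samples spread, part of which may be technical. The question was whether the transcripts from the 2 genomes differed between the genotypes and in step with each other.

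Complex I passes electrons from NADH to ubiquinone and pumps protons across the inner mitochondrial membrane. Its core subunits carry the chemistry: nuclear core subunits form the arm that binds NADH, flavin and iron-sulphur clusters (the N module) and the arm that reduces quinone (the Q module), while the mitochondrial core subunits form the proton pumps within the membrane. The accessory subunits, all nuclear, surround this core and are needed for its assembly and stability. The enzyme therefore requires transcripts from both genomes, and heart muscle, which relies on oxidative metabolism as it matures, expresses them strongly.

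The libraries held 27707435 to 49094225 counts in genes, and 20606 to 22093 genes had a count. The 43 genes took 0.985% to 1.58% of these counts. Nkx2-5 itself, the check of the genotype labels, stood at 18.8, 41.9, 45.0 and 39.5 CPM (counts scaled to the size of the library) in wild types 1 to 4 and at 16.5, 24.4, 17.8, 11.4 and 17.4 CPM in deletions 1 to 5, so that wild type 1 lay within the deletion range. The log2 fold change of Nkx2-5 was -1.05 ± 0.26 (SE; edgeR unadjusted p = 0.0023, edgeR adjusted p = 0.896). The adjusted value was taken over all genes tested. Heart muscle markers were present in every library, and 3 libraries stood apart by markers of other cells or by their level of heart muscle markers: wild type 1, wild type 2 and deletion 2.

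Of the mitochondrial members, mt-Nd1 dominated. It made up 59.9% to 64.8% of the counts of the 7 mitochondrial members in a library. Per kilobase of exon, the mean wild-type level was 3804 CPM per kb for mt-Nd1, 882 for mt-Nd2, 411 for mt-Nd4, 343 for mt-Nd5, 214 for mt-Nd6, 18.4 for mt-Nd3 and 0.533 for mt-Nd4l. Of these, mt-Nd1, mt-Nd2, mt-Nd3, mt-Nd4l and mt-Nd6 belong to the part of the membrane arm next to the quinone site, and mt-Nd4 and mt-Nd5 to the distal part. All genes of the heavy-strand transcription unit are cut from a long shared precursor, whereas mt-Nd6 is transcribed from the opposite strand.

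The lowest of these levels belong to genes whose sequence also occurs in nuclear pseudogenes. Every 50-base window of each member transcript was looked for in all other annotated transcripts of mm10. No window of mt-Nd1 or mt-Nd6 occurred elsewhere, 7.61% of those of mt-Nd5 and 8.19% of those of mt-Nd2 did, and the share was 62.2% for mt-Nd4, 98.0% for mt-Nd3 and 98.8% for mt-Nd4l. The copies nearest to mt-Nd4, mt-Nd3 and mt-Nd4l are the unprocessed pseudogenes Gm28439, Gm28438 and Gm10222 on chromosome 1. A read that matches both places equally has several alignments, and the deposited counts hold such reads, 10.6% to 12.4% of a library, in an entry of their own that names no gene. The sequences of the 2 members with the most shared windows are shown because few or no aligned bases of either differ from its copy. They are given 5′ to 3′ from the GENCODE M21 transcripts (mm10, plus strand of chromosome M), mt-Nd4l whole and mt-Nd3 over its first 100 bases. Capitals mark bases that differ from the copy or lie past the end of its annotated sequence. The capitals at the end of mt-Nd4l are of the second kind, as no aligned base differed.
mt-Nd4l (chrM:9877-10173): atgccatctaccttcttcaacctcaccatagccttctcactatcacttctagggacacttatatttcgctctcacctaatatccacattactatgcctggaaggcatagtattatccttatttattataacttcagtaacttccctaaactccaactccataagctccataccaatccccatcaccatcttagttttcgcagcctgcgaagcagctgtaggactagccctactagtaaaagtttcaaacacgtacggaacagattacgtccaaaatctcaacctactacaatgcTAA
mt-Nd3 (gene at chrM:9459-9806, first 100 bases): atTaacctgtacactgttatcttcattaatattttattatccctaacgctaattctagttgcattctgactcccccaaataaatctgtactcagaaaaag
The whole annotated length of Gm10222, 294 bases, was identical to mt-Nd4l, which is 297 bases long. Gm28438 matched mt-Nd3 at 344 of 345 aligned bases, the difference being T3C counted from the first base of the transcript.

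**Figure D1:**
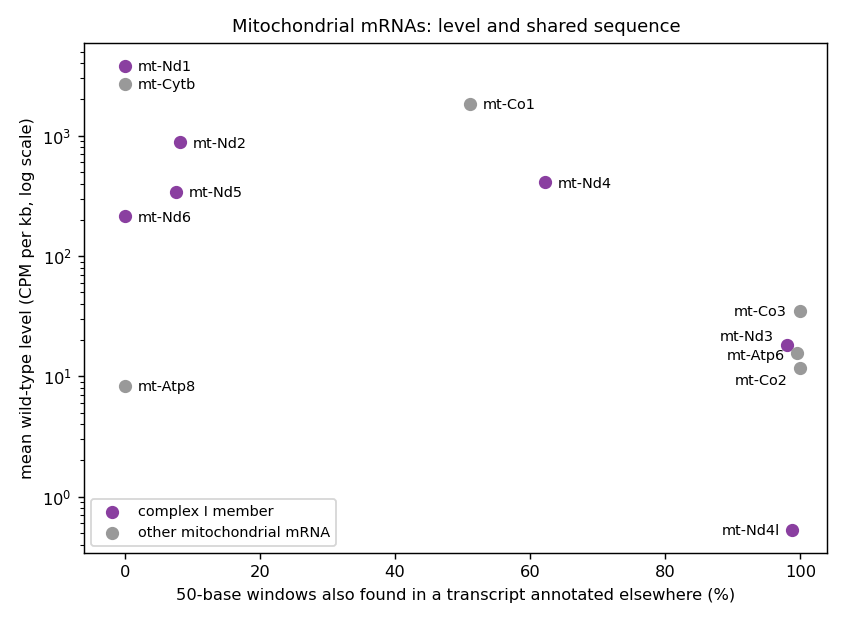
Mean level in the 4 wild-type libraries (vertical axis, CPM per kb, log scale) of the 13 mitochondrial mRNAs against the share of their 50-base windows found in a transcript annotated elsewhere (horizontal axis, %); each point is 1 gene. The genes with 98.0% or more shared windows, among them mt-Nd3 and mt-Nd4l, lie at 35.2 CPM per kb or less, and mt-Atp8 is low at 0% shared windows. Copies not annotated as transcripts were not searched.

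Outside complex I, shared windows and level went together for some mitochondrial mRNAs and not for others. The windows of mt-Co2, mt-Co3 and mt-Atp6 were shared at 100%, 99.9% and 99.5%, and all 3 were low. Those of mt-Co1 were shared at 51.1%, yet its level was 1845 CPM per kb, exceeded by mt-Cytb, of which none was shared, at 2706 CPM per kb. The gene mt-Atp8 was low, at 1.70 CPM in wild type, without windows shared with an annotated transcript. It lies between mt-Co2 and mt-Atp6, whose nearest copies are annotated on chromosome 1. Copies not annotated as transcripts were not searched, so the absence of a copy of mt-Atp8 is not shown. Levels of mt-Nd3, mt-Nd4 and mt-Nd4l are therefore given as uncertain, while their comparison between libraries uses the same annotation throughout. The count of mt-Nd4l was 6, 10, 5 and 3 in wild types 1 to 4 and 18, 14, 8, 2 and 3 in deletions 1 to 5, below the filter on low counts, and it was not tested. Its copy Gm10222 had 5, 13, 6 and 2 counts in wild type and 26, 2, 3, 3 and 8 in the deletion. The 2 ranges overlapped for both genes. The 36 nuclear members lie on 15 chromosomes, with Ndufa1 and Ndufb11 on the X. Of them 23 shared no window with another annotated gene and 0 shared more than 50%, and 13 overlap an exon of a gene on the opposite strand (Ndufs1 with Eef1b2 and Ndufs3 with Kbtbd4, for example). The strand setting of the counting is not given in the sources used here. The deposited counts hold a further entry for ambiguous reads, those that fall on several genes, with 3.74% to 4.02% of a library. If strand was not used, reads over these overlaps would be in that entry and missing from the members. The same holds for mt-Nd5 and mt-Nd6 over the stretch where their ends overlap.

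No member passed the test between genotypes. The test was edgeR's quasi-likelihood test with p-values adjusted over the 16522 genes that passed the filter, at an adjusted p of 0.05. It called 0 of the 42 members tested, where it called 0 genes in all (0%). At an unadjusted p of 0.05 there were again 0 of 42 members, against 870 of all genes (5.27%), of which 384 were higher (2.32%) and 486 lower (2.94%) in the deletion. DESeq2 called 40 genes (0.225%) and limma's voom 4 (0.0242%), with 0 members in either. DESeq2 with a block by replicate number called 69 (0.43%), edgeR on wild types and deletions 3 and 4 alone called 6 (0.0369%) and edgeR without wild type 3 called 1 (0.00587%), again with 0 members. Libraries of the genotypes overlapped for all 42 members tested, while 298 of all genes did not overlap (1.8%). In bulk tissue, fewer cells of a type and less RNA per cell cannot be told apart in any of these values.

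The precision differed between the genomes. The 95% intervals of the 36 nuclear members lay between -0.47 (Ndufb7) and 0.63 (Ndufb4) on the log2 scale, which is from 72.0% of the wild-type level to 1.55-fold. For the 7 nuclear core subunits they lay between -0.37 and 0.30. For the 6 mitochondrial members tested they reached from -0.40 (mt-Nd5) to 1.19 (mt-Nd3), a 2.28-fold higher level. The nuclear members thus had a median half-width of 0.26, and the mitochondrial members one of 0.45.

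The estimates of the 2 genomes leaned opposite ways, within that error, and the difference between them was not tested. Of the nuclear members, 25 of 36 had a log2 fold change below 0, with a median of -0.05 and a range from -0.21 (Ndufb7) to 0.13 (Ndufb4). Of the mitochondrial members, 5 of 6 lay above 0, with a median of 0.15. Over all genes tested 8169 (49.4%) lay below 0 and the median was 0.00. Single libraries moved both counts. Without wild type 1, 29 of 36 nuclear members lay below 0 and 6 had an unadjusted p under 0.05, against 984 of 16910 genes (5.82%). Without wild type 2, 12 of 36 nuclear members lay below 0, with a median of 0.04, and without deletion 2, 4 of 6 mitochondrial members did, with a median of -0.02. With the replicate number as a block, 30 of 36 nuclear and 0 of 6 mitochondrial members lay below 0.

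**Figure D2:**
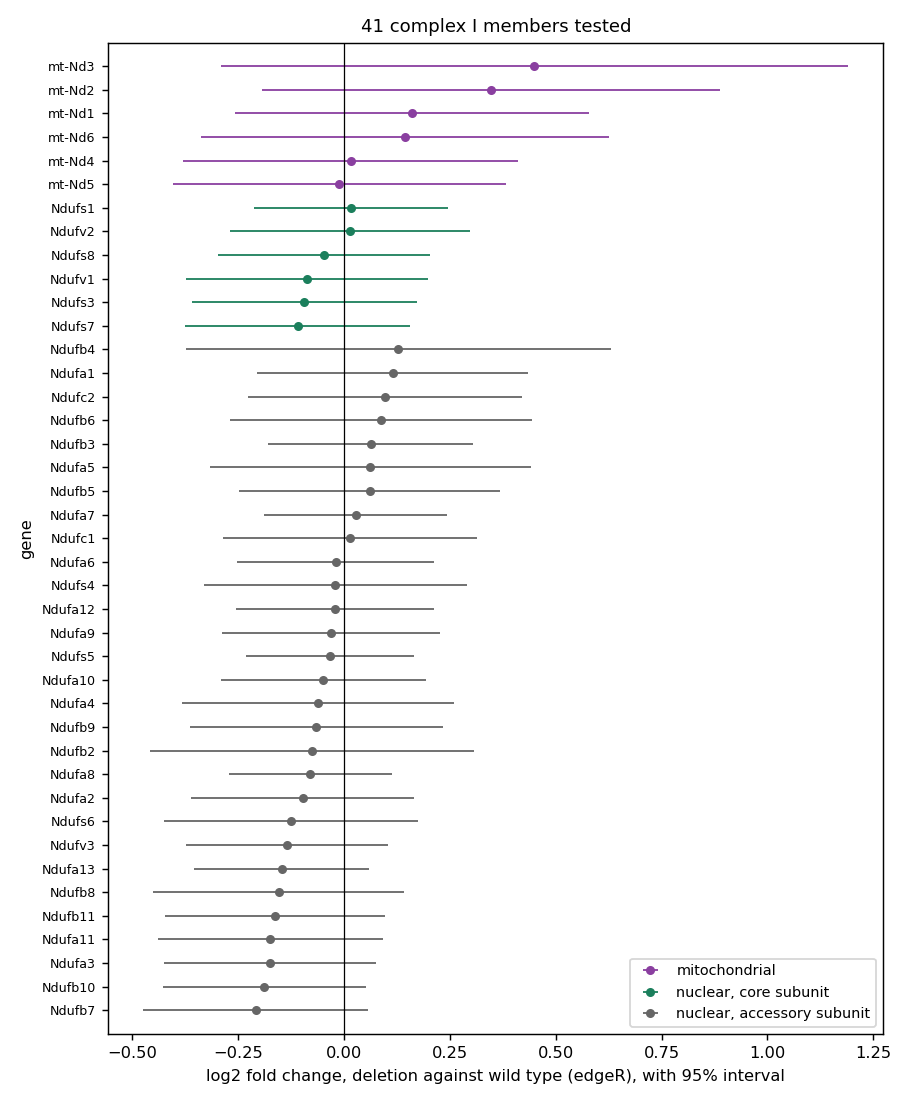
Log2 fold change of 41 of the 42 members tested, deletion against wild type (horizontal axis), with its 95% interval from edgeR as a line; genes are on the vertical axis, in 3 colours for mitochondrial, nuclear core and nuclear accessory members. Every interval includes 0, the nuclear values lie between -0.21 and 0.13, and those of mt-Nd2 and mt-Nd3 lie farthest right.

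The most abundant member, mt-Nd1 (chrM:2751-3707 in mm10, plus strand), which forms the junction of the quinone site with the membrane arm, measured 3818, 3426, 3341 and 3977 CPM in wild types 1 to 4 and 4397, 5929, 3585, 2919 and 3517 CPM in deletions 1 to 5. Deletion 2 was the highest of the 9 libraries and deletion 4 the lowest, so that the wild-type range lay inside that of the deletion. The log2 fold change was 0.16 ± 0.19 (SE; edgeR adjusted p = 0.948). Without deletion 2 it was -0.01.

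The pump subunit mt-Nd2 (chrM:3914-4951, plus strand) measured 938, 905, 827 and 993 CPM in wild-type libraries and 1237, 1910, 907, 691 and 1079 CPM in deletion libraries. Here 3 deletion libraries (1, 2 and 5) exceeded every wild type and deletion 4 lay below every wild type. Its log2 fold change was 0.35 ± 0.24 (SE; edgeR adjusted p = 0.913), and 0.10 without deletion 2. The ratio of mt-Nd2 to mt-Nd1 counts, 2 neighbours on the heavy-strand precursor, was 0.246, 0.264, 0.247 and 0.250 in wild type and 0.281, 0.322, 0.253, 0.237 and 0.307 in the deletion. The same 3 deletion libraries had the highest ratios, while deletions 3 and 4 had ratios of the wild-type size or lower.

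The small membrane subunit mt-Nd3 measured 7.17, 8.16, 5.49 and 4.77 CPM in wild-type libraries and 9.01, 16.0, 5.28, 5.48 and 7.94 CPM in deletion libraries. Deletions 1 and 2 lay above all wild types and the other 3 among them. The log2 fold change was 0.45 ± 0.34 (SE; edgeR adjusted p = 0.915), and 0.12 without deletion 2. Added to its copy Gm28438, the level was 7.79 ± 2.13 CPM in wild type (SD, n = 4) and 10.5 ± 5.20 CPM in deletion libraries (SD, n = 5), with deletion 2 again highest at 18.8 CPM.

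The distal pump subunit mt-Nd4 measured 655, 625, 450 and 538 CPM in wild-type libraries and 665, 712, 560, 382 and 547 CPM in deletion libraries, a log2 fold change of 0.02 ± 0.18 (SE; edgeR adjusted p = 0.996). The distal subunit mt-Nd5 measured 747, 636, 517 and 599 CPM in wild-type libraries and 708, 802, 625, 431 and 535 CPM in deletion libraries, a log2 fold change of -0.01 ± 0.18 (SE; edgeR adjusted p = 0.998). Both sets of values were highest in deletion 2 and lowest in deletion 4, and the group means were nearly equal. The gene on the other strand, mt-Nd6 (chrM:13552-14070, minus strand), measured 127, 118, 88.4 and 111 CPM in wild-type libraries and 131, 182, 117, 73.7 and 111 CPM in deletion libraries. It was again highest in deletion 2 and lowest in deletion 4, with a log2 fold change of 0.14 ± 0.22 (SE; edgeR adjusted p = 0.951).

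None of the 10 members of the NADH-binding N module passed the test. Ndufv1, which binds NADH and the flavin, measured 182, 300, 251 and 252 CPM in wild-type libraries and 221, 243, 232, 216 and 247 CPM in deletion libraries, a log2 fold change of -0.09 ± 0.13 (SE; edgeR adjusted p = 0.949). All 5 deletion libraries lay within the wild-type range, whose ends were wild types 1 and 2. Ndufv2, its iron-sulphur partner, measured 414, 513, 417 and 404 CPM in wild-type libraries and 498, 439, 390, 364 and 517 CPM in deletion libraries. Its log2 fold change was 0.01 ± 0.13 (SE; edgeR adjusted p = 0.996), and the highest library was deletion 5. Ndufs1, the largest iron-sulphur subunit, measured 201, 236, 226 and 219 CPM in wild-type libraries and 223, 256, 222, 183 and 231 CPM in deletion libraries, with a log2 fold change of 0.02 ± 0.10 (SE; edgeR adjusted p = 0.995). Both ends of its range were deletion libraries, deletion 2 above and deletion 4 below. The 10 members of the module ranged from -0.13 (Ndufv3) to 0.03 (Ndufa7) on the log2 scale, with 7 below 0 and a median of -0.02.

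None of the 6 members of the quinone-binding Q module passed it either. Ndufs7, the subunit with the last iron-sulphur cluster before quinone, measured 127, 202, 176 and 177 CPM in wild-type libraries and 157, 157, 158, 159 and 160 CPM in deletion libraries. Its 5 deletion values were nearly equal, inside a wild-type range set by wild types 1 and 2. The SD was 31.6 CPM in wild-type libraries and 1.38 CPM in deletion libraries, and the log2 fold change was -0.11 ± 0.12 (SE; edgeR adjusted p = 0.944). Ndufs3 measured 63.9, 98.2, 87.2 and 85.5 CPM in wild-type libraries and 80.2, 73.1, 81.9, 73.9 and 83.2 CPM in deletion libraries, with a log2 fold change of -0.09 ± 0.12 (SE; edgeR adjusted p = 0.948). Ndufs8, another carrier of iron-sulphur clusters, measured 118, 176, 145 and 141 CPM in wild-type libraries and 151, 149, 135, 130 and 137 CPM in deletion libraries, with a log2 fold change of -0.05 ± 0.11 (SE; edgeR adjusted p = 0.976). For Ndufs3 and Ndufs8, as for Ndufs7, wild type 1 was the lowest and wild type 2 the highest of the 9 libraries. The 6 members of the module had a median of -0.04, with 5 below 0.

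The smallest p-values among the nuclear members belonged to accessory subunits of the membrane arm, and each was far from the threshold. Ndufb7, of the distal part, measured 98.8, 153, 119 and 136 CPM in wild-type libraries and 110, 106, 117, 105 and 111 CPM in deletion libraries. Only wild type 1 lay below the deletion range, and the other 3 wild types lay above it. The log2 fold change was -0.21 ± 0.12 (SE; unadjusted p = 0.110, edgeR adjusted p = 0.900). Ndufb10, also distal, measured 99.96, 147, 118 and 119 CPM in wild-type libraries and 110, 111, 102, 100.4 and 106 CPM in deletion libraries, with a log2 fold change of -0.19 ± 0.11 (SE; edgeR adjusted p = 0.900). Its order was the same: wild type 1 was lowest, and the other 3 wild types were above every deletion library. Ndufa3, Ndufa11, Ndufa13 and Ndufb11 had log2 fold changes of -0.17, -0.17, -0.15 and -0.16, with edgeR adjusted p of 0.902, 0.910, 0.902 and 0.913. For Ndufa3 and Ndufa11 wild types 2, 3 and 4 exceeded all deletion libraries, with wild type 1 at 132 and 140 CPM below all of them. These 6 estimates rested in part on wild type 2: without it, those of Ndufb7, Ndufb10, Ndufa3, Ndufa11, Ndufa13 and Ndufb11 were -0.10, -0.08, -0.06, -0.04, -0.09 and -0.02. The 12 members of the distal pump module had a median of -0.04 and the 13 tested of the proximal pump module one of 0.01, with 7 and 6 below 0. Both modules mix the genomes. The proximal one includes mt-Nd1, mt-Nd2, mt-Nd3 and mt-Nd6, at 0.16, 0.35, 0.45 and 0.14. The distal one includes mt-Nd4 and mt-Nd5, at 0.02 and -0.01.

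Per exon length the nuclear members had a median wild-type level of 149 CPM per kb. The highest was Ndufa4, at 656 CPM per kb, a subunit once assigned to complex I and since placed in complex IV. Taken by symbol, Ndufa4 enters the counts, medians and sums of the nuclear members and is drawn with the accessory members, but belongs to none of the modules above. It measured 381, 509, 360 and 387 CPM in wild-type libraries and 452, 376, 341, 325 and 469 CPM in deletion libraries, overlapping throughout, with a log2 fold change of -0.06 ± 0.15 (SE; edgeR adjusted p = 0.975). The lowest was Ndufb2, at 7.76 CPM per kb over an annotated exon length of 4375 bases, part of which overlaps exons of Braf on the other strand. Its log2 fold change was -0.08 ± 0.17 (SE; edgeR adjusted p = 0.974).

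Promoters of the nuclear members were examined for the letters bound by regulators known for respiratory genes. NRF1, a factor named for respiration genes, binds GCGCA, any 1 base and GCGC in a row. ETS factors such as GABP, also called NRF2, bind CCGGAAG. Both strands were searched over 250 bases per gene, placed before the start site by the first RefSeq entry. By GENCODE M21 coordinates some of these windows, among them those of Ndufb4 and Ndufs3, reach into the annotated gene. Those of Ndufa5, Ndufa12, Ndufa13 and Ndufs7 lie wholly within it, and that of Ndufa5 is among the windows with NRF1 letters. Of the 36 nuclear members 32 matched the RefSeq promoter table (GRCm38.p6). The NRF1 letters stood in 6 of these 32 windows (18.8%), against 1044 of 27025 windows of all genes (3.86%), and the ETS letters in 3 (9.38%) against 1906 (7.05%). Either was present in 9 (28.1%), against 10.3% of all windows, and no member window held both. The windows of all genes were not matched to those of the members for expression or base content, and the shares were not tested. Shown are Ndufb4, the nuclear member with the highest fold change and 3 matches, Ndufa11, among the lowest with 1 match, and the core subunit Ndufs3 with an ETS match. Sequences run 5′ to 3′ on the gene's strand, with matches in capitals.
Ndufb4 (chr16:37654369-37654618, minus strand): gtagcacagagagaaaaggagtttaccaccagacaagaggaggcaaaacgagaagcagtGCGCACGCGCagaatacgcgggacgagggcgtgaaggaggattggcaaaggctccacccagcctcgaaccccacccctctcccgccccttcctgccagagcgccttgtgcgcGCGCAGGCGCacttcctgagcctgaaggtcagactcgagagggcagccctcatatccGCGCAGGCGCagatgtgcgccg
Ndufa11 (chr17:56717512-56717761, plus strand): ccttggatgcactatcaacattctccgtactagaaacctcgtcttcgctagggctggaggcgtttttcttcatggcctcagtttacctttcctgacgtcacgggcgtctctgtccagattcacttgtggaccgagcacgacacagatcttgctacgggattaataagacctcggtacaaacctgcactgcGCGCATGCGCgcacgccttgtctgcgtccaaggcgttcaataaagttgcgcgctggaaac
Ndufs3 (chr2:90904722-90904971, minus strand): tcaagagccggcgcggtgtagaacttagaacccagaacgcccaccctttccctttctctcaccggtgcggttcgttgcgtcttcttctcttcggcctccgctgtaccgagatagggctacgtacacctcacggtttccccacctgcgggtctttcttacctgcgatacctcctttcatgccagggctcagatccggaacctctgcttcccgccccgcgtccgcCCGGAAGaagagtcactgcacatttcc
A match of letters shows no binding. Ndufb4 and Ndufa11, both with NRF1 letters, had fold changes of 0.13 and -0.17, and a link between letters and levels was not tested.

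Summed over the members, the transcripts of each genome overlapped between genotypes. The 36 nuclear members summed to 5246, 7188, 5899 and 5926 CPM in wild types 1 to 4 and to 6295, 5909, 5584, 5217 and 6399 CPM in deletions 1 to 5. Wild type 2 was the highest library and wild type 1 and deletion 4 the lowest. The group means were 6065 ± 812 CPM (SD, n = 4) and 5881 ± 492 CPM (SD, n = 5), a difference of -0.04 on the log2 scale with an SE of 0.11. Without wild type 2 this difference was 0.05, and without wild type 1 it was -0.11.

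The 7 mitochondrial members summed to 6293, 5717, 5229 and 6224 CPM in wild-type libraries and to 7148, 9551, 5800, 4503 and 5797 CPM in deletion libraries. Deletions 1 and 2 exceeded all wild types and deletion 4 lay below all of them. The means were 5866 ± 496 CPM (SD, n = 4) and 6560 ± 1916 CPM (SD, n = 5), a log2 difference of 0.12 with an SE of 0.19. Without deletion 2 the log2 difference was -0.03.

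The ratio of mitochondrial to nuclear counts does not depend on how libraries are scaled. It was 1.20, 0.795, 0.886 and 1.05 in wild type and 1.14, 1.62, 1.04, 0.863 and 0.906 in the deletion. Apart from deletion 2, every deletion library lay within the wild-type range. The means were 0.983 ± 0.179 (SD, n = 4) and 1.11 ± 0.302 (SD, n = 5), a log2 difference of 0.16 with an SE of 0.21. Without deletion 2 the log2 difference was 0.01.

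**Figure D3:**
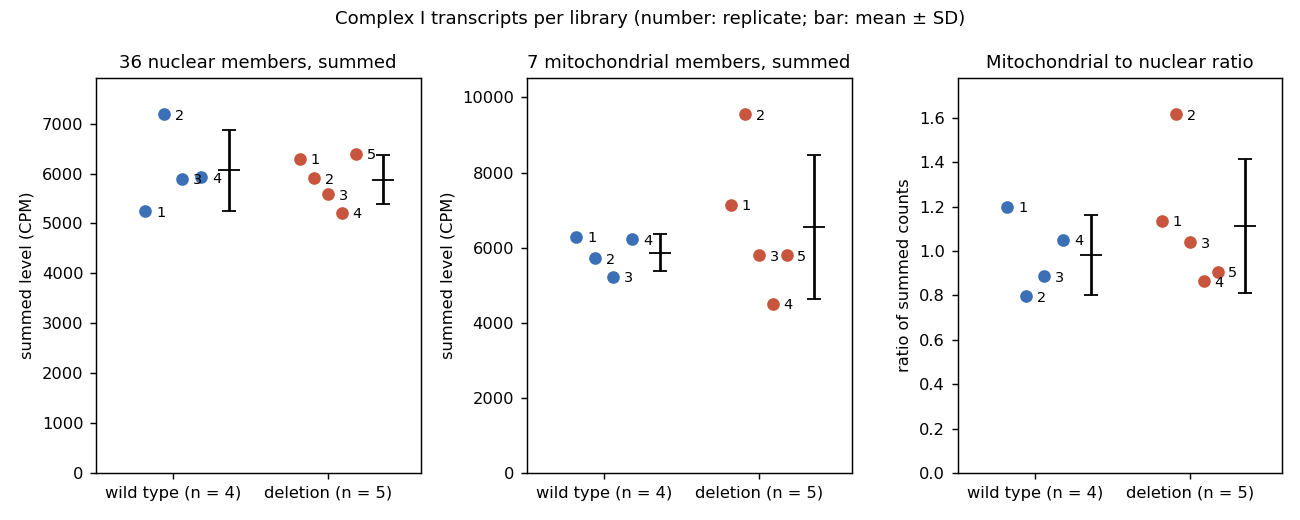
Summed level of the 36 nuclear members (left, CPM) and of the 7 mitochondrial members (middle, CPM) and the ratio of their summed counts (right) in each library; points are libraries with their replicate number, and the black mark with its bar is the group mean ± SD. Wild type 2 leads the nuclear sums at 7188 CPM, and deletion 2 leads the mitochondrial sums at 9551 CPM and the ratio at 1.62.

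Single libraries set the range of most members, and not the same libraries for each genome. Wild type 2 was the highest of the 9 libraries for 25 of the 36 nuclear members and wild type 1 the lowest for 19, while deletion 4 was the lowest for 13 and below the mean over libraries for all 36. Deletion 2 was the highest for all 6 mitochondrial members tested and deletion 4 the lowest for 5 of 6, the exception being mt-Nd3, lowest in wild type 4. The coefficient of variation of a nuclear member had a median of 16.2% in wild type and 7.14% in the deletion, and its SD was larger in wild type for 25 of 36. For the mitochondrial members these medians were 15.1% and 30.2%, and the SD was larger in wild type for 0 of 6. The order of libraries was not particular to complex I. Summed, the nuclear genes of complexes II, III and V were highest in wild type 2 (2013, 3373 and 10636 CPM). They were lowest in wild type 1 (1419, 2273 and 7333 CPM). Those of complex IV were highest in wild type 2 (3476 CPM) and lowest in deletion 4 (2280 CPM), with wild type 1 at 2294 CPM.

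Members of 1 genome moved together across libraries. Over the 9 libraries, taken as deviations from the group means on the log2 scale, the correlation had a median of 0.70 for the 630 pairs of nuclear members, with 619 above 0, and of 0.84 for the 15 pairs of mitochondrial members, with 15 above 0. For the 216 pairs of a nuclear with a mitochondrial member the median was 0.15, with 153 above 0. The mitochondrial mRNAs mt-Cytb and mt-Co1, outside complex I, moved with the mitochondrial members too. Their 12 pairs with these members had a median of 0.81, with 12 above 0. No pairs of nuclear genes outside complex I were set beside these values. These are descriptions of values that share libraries, depth and scaling.

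**Figure D4:**
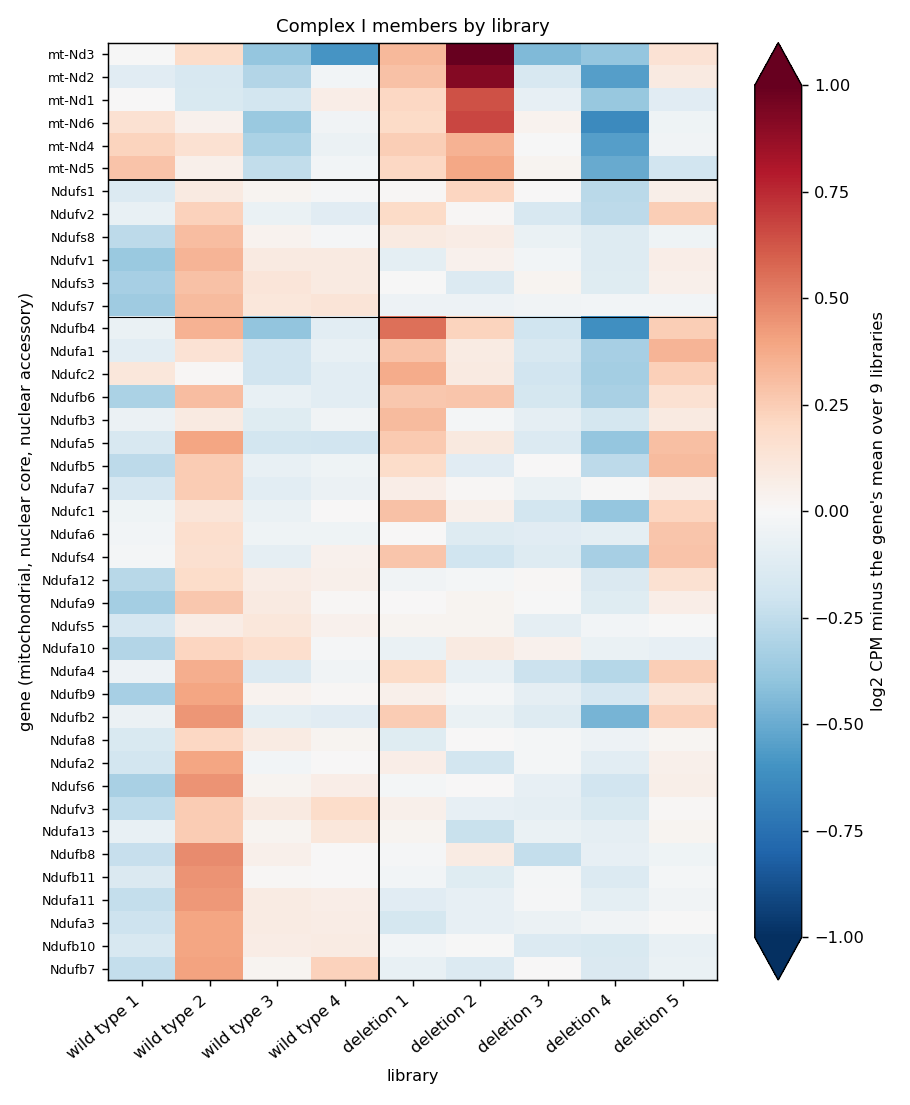
Log2 CPM of 41 of the 42 members tested (vertical axis) minus its mean over the 9 libraries (horizontal axis), red above and blue below, with colour at its limit beyond 1; lines part the mitochondrial, nuclear core and nuclear accessory members and the genotypes. The columns of wild type 2 (nuclear members) and deletion 2 (mitochondrial members) are red, and that of deletion 4 is blue in both genomes.

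Markers of cell types also differed between libraries of 1 genotype. The 8 cardiomyocyte markers, all detected in every library, summed to 7804, 18567, 16285 and 16918 CPM in wild types 1 to 4 and to 11450, 13579, 15392, 11324 and 13615 CPM in deletions 1 to 5. Wild type 1, lowest for most nuclear complex I members, was the lowest library and wild type 2 the highest. Deletion 1 was second lowest of the deletion libraries for these markers and second highest of them for the nuclear members, which summed to 6295 CPM there. All 8 cardiomyocyte markers had a log2 fold change below 0, with a median of -0.24. The 4 smooth muscle markers also all lay below 0, with a median of -0.30. Of these 4, 2 had an unadjusted edgeR p under 0.05, against 5.27% of all genes. For 1 of the 2, Myh11, wild type 1 stood at 34.5 CPM and the other wild types at 4.11 to 7.87 CPM. None of the markers passed the adjusted threshold. Of the erythroid, macrophage and epicardial markers 5 of 5, 4 of 4 and 3 of 4 lay below 0. Among them 2 epicardial markers, Wt1 and Upk3b, had an unadjusted edgeR p under 0.05. Of the endothelial and cushion mesenchyme markers 4 of 5 and 3 of 3 lay above 0, with medians of 0.23 and 0.39. Only Postn, of the cushion mesenchyme, had an unadjusted edgeR p under 0.05 there. The 5 erythroid markers, all detected in every library, summed to 3049 and 4171 CPM in wild types 1 and 2, to 168 and 214 CPM in wild types 3 and 4 and to 359 to 990 CPM in deletion libraries. The 5 neuron markers, again all detected in every library, summed to 2595 CPM in deletion 2 and to between 73.3 and 119 CPM in the other 8 libraries. All 5 had a log2 fold change above 0, and 1 of them, Tubb3, had an unadjusted edgeR p under 0.05. The part of these cells in the levels of complex I transcripts was not tested.

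In deletion 2 the mitochondrial mRNAs stood in other proportions than in the remaining libraries. The counts of mt-Nd1 over those of mt-Cytb, the complex III subunit without shared windows, gave 1.65 there, against 1.06 to 1.29 in wild type and 1.13 to 1.35 in the other deletion libraries. The level of mt-Cytb in deletion 2, 3603 CPM, was close to that of wild type 1, 3608 CPM. Summed, the mitochondrial complex I members stood at 1.35 times the other mitochondrial mRNAs in deletion 2 and at 0.884 to 1.08 times in the other 8 libraries. The cause of this difference between mitochondrial mRNAs was not tested.

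Split by the number in the count files' names, the 2 genomes gave different values. Wild types and deletions 1 and 2 share 1 such number (the first set) and wild types and deletions 3 and 4 another (the second set), while the number of deletion 5 occurs once and holds the digits of the second set's in another order, so that deletion 5 was both left out and counted with the second set. What the number stands for is not given in the labels. In the first set the 6 mitochondrial members tested over all libraries were above 0 in 6 of 6, with a median of 0.45 on the log2 scale. There mt-Nd4l also passed the filter on low counts, at 1.03, and the median with it was 0.53. Of the nuclear members 18 of 36 lay below 0 in the first set, with a median of -0.01. In the second set, 5 of 6 mitochondrial members lay below 0, with a median of -0.08, and so did 35 of 36 nuclear members, with a median of -0.13, where 8141 of 16267 genes lay below 0 with a median of -0.00. When deletion 5 was counted with the second set, 25 of 36 nuclear members lay below 0 with a median of -0.07.

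No member passed the adjusted threshold in either set. At an unadjusted p of 0.05 the second set named 8 of 36 nuclear members, against 1246 of 16267 genes (7.66%), and all 8 had lower estimates in the deletion. The smallest p among them was that of Ndufv3, an accessory subunit of the matrix arm, at -0.26 ± 0.08 (SE; unadjusted p = 0.0086, edgeR adjusted p = 0.456). The first set named 0 nuclear members and 1 mitochondrial member, mt-Nd2, against 1222 of 17073 genes (7.16%). With deletion 5 in the second set, 2 of the 36 nuclear members had an unadjusted p under 0.05. The share of all genes was not counted for that fit, so nothing about the members is read from this number.

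The difference between the sets was tested with an interaction term over all genes. It called 0 of the 42 members at an adjusted p of 0.05, against 2 of 16303 genes (0.0123%). At an unadjusted p of 0.05 it named 2 members, mt-Nd1 and mt-Nd2, against 1307 genes (8.02%). The fold change of mt-Nd2 in the first set was 0.79 and that in the second -0.19, an interaction of -0.98 ± 0.32 (SE; unadjusted p = 0.0162, edgeR adjusted p = 0.512). That of mt-Nd1 was 0.53 and -0.17, an interaction of -0.70 ± 0.28 (SE; unadjusted p = 0.0392, edgeR adjusted p = 0.588). With 2 libraries per genotype and set, deletion 2 is 1 of the 2 deletion libraries on which each value of the first set rests.

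Between the sets themselves, with genotype held in the model, 1609 genes were called (9.87%), of which 693 were lower (4.25%) and 916 higher (5.62%) in the second set. Of the members only mt-Nd3 was among them, lower in the second set by a log2 change of -0.90 ± 0.24 (SE; edgeR adjusted p = 0.0475). All 6 mitochondrial members tested lay below 0 in this comparison, with a median of -0.48, and 0 of the 36 nuclear members were called, with 26 below 0 and a median of -0.09.

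**Figure D5:**
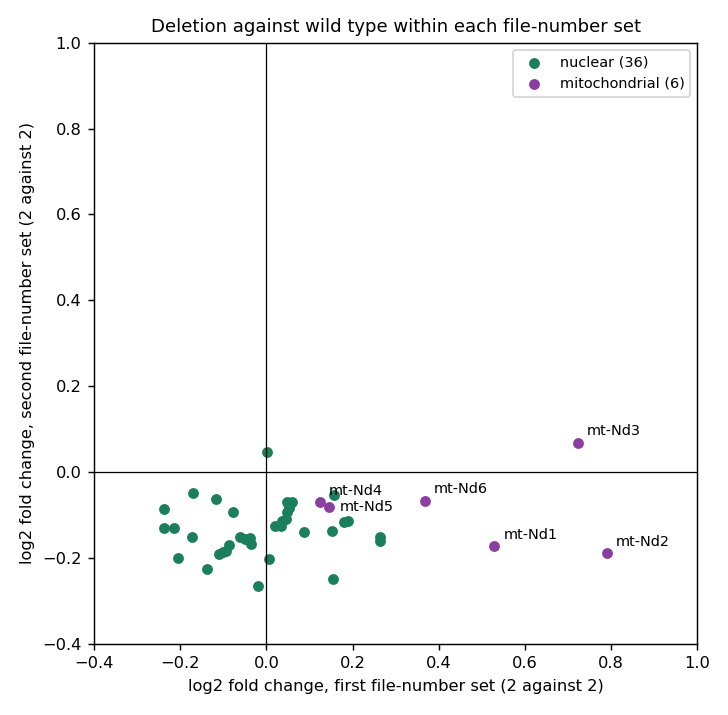
Log2 fold change of each member, deletion against wild type, in the first set of libraries by file number (horizontal axis) and in the second set (vertical axis), each 2 libraries against 2; green points are the 36 nuclear members and purple points the 6 mitochondrial members tested. The mitochondrial points lie to the right of 0, with mt-Nd2 at 0.79 and -0.19, and 35 of 36 nuclear points lie below 0 on the vertical axis.

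The relatives and the other complexes set the background for these values. Ndufab1, the acyl carrier subunit that the symbol rule leaves out, had a log2 fold change of 0.01 ± 0.11 (SE; edgeR adjusted p = 0.996). Ndufa4l2, a relative of Ndufa4 known as a hypoxia-induced gene, measured 14.1, 24.7, 30.5 and 26.8 CPM in wild-type libraries and 14.1, 11.2, 20.2, 11.4 and 25.6 CPM in deletion libraries. It overlapped between the genotypes, with a log2 fold change of -0.54 ± 0.29 (SE; edgeR adjusted p = 0.896). The 16 complex I assembly factors measured, which build the enzyme without staying in it, had a median of -0.01 with 8 below 0 and 0 called.

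Of the other complexes, 0 genes were called in any. All 4 complex II genes lay below 0, with a median of -0.03. For complex III 7 of 9 nuclear genes lay below 0 (median -0.09), for complex IV 11 of 13 (median -0.10) and for complex V 12 of 16 (median -0.09). The 1 gene among these with an unadjusted p under 0.05 was Cox6a2, the striated-muscle form of a complex IV subunit, at 80.2, 204, 177 and 209 CPM in wild-type libraries and 111, 92.3, 88.0, 71.8 and 101 CPM in deletion libraries. Wild type 1 lay in the deletion range and the other 3 wild types above it, a log2 fold change of -0.85 ± 0.24 (SE; edgeR adjusted p = 0.896).

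No gene of the machinery that makes mitochondrial transcripts passed the test. The 24 genes of mitochondrial gene expression measured, such as the polymerase Polrmt at -0.24 ± 0.17 (SE; edgeR adjusted p = 0.913), had a median of 0.03, with 16 above 0 and 0 called. The 2 mitochondrial rRNAs had log2 fold changes of 0.04 (mt-Rnr1) and 0.17 (mt-Rnr2), and 3 of the 6 mitochondrial mRNAs outside complex I lay above 0, with a median of 0.02. Of the 12 regulators of mitochondrial biogenesis 6 lay above 0 and 0 were called. The nuclear receptor gene Esrrg, whose product drives genes of oxidative metabolism in heart muscle, had a log2 fold change of 0.58 ± 0.19 (SE; unadjusted p = 0.0103, edgeR adjusted p = 0.896). Its relative Esrrb lay the other way, at -1.22 ± 0.58 (SE; unadjusted p = 0.0603, edgeR adjusted p = 0.896), and Esrra, Ppargc1a and Ppargc1b, chosen after their values were seen, were at -0.31, -0.20 and -0.49.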

How the data were processed

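Total RNA was extracted from dissected outflow tracts on columns and made into low-input libraries, per the labels' protocols. Each library has 1 deposited file of raw read counts by gene symbol. The submitters' processing notes name HTSeq 0.6.0, STAR 2.5.0c, DESeq2, Picard and mm10 as the build. The order of the authors' steps, the annotation and the strand setting were not given in the sources used here. Between 20.6% and 23.5% of reads fell in entries without a gene name, which were left out; reads with several alignments are among them.

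The 43 members were found by symbol; they, the gene lists and the comparisons were chosen with earlier results of these data known. Counts were fitted over all genes with edgeR 4.0.16 under R 4.3.3 (robust quasi-likelihood fit, TMM, filterByExpr at a minimum count of 10, a genotype term alone, two-sided p adjusted by Benjamini-Hochberg). CPM used TMM-scaled library sizes. DESeq2 1.42.0 and limma 3.58.1 were alternatives, as were other scalings, no filter, the set (the number in the count file's name, whose meaning the labels do not give), the replicate block and leaving out each library. The fit was tested on simulated data. Coordinates, exon lengths and 50-base windows come from GENCODE M21 (mm10) and promoters from RefSeq. All pairs of libraries differed beyond sampling noise.

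The named genes were Nkx2-5, all mitochondrial members, the nuclear core subunits, the 8 members with the smallest p, the extremes per length, members set apart by 1 library, and up to 2 genes of other lists by p; Polrmt, Ndufb4 and Ndufs3's promoter were singled out after their values were seen. Same-numbered libraries of the genotypes deviated together (numbers 1 to 4 had correlations of 0.242, 0.137, 0.227 and 0.176) so fits with the number as a block were run as an alternative, although the best partner had the same number for only 2 of 4 wild types. Deletion 5 has no partner. The values of 1 member are not reported here; it enters the counts, medians and sums. Sums and ratios over members carry no test.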

Additional observations from a re-analysis of the deposited data

Results flagged for a closer look

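In 4 of the 92 groups of libraries examined (each of the 43 members, the sums of the nuclear and of the mitochondrial members and their ratio, in each genotype), 1 library lay apart from the others of its group by Dixon's criterion; chance alone gives about 1 in 20. In every case it was wild type 2, on the high side, and the gene was a nuclear member. Ndufa5, an accessory subunit of the quinone module, stood at 176 CPM in that library, where the next highest wild type had 120 CPM. Ndufa6, of the NADH-binding module, stood at 122 CPM against 106 CPM. Ndufb2, of the distal pump module, stood at 44.1 CPM against 31.2 CPM. Ndufv2, the iron-sulphur partner of Ndufv1, stood at 513 CPM against 417 CPM. For Ndufa6 and Ndufv2 deletion 5 was higher still, at 131 and 517 CPM, so that wild type 2 was not the highest of the 9 libraries.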

How the results depend on the processing

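No alternative called a member, and 0 of the 484 values of the 22 named members under alternatives passed the threshold; 52 had the opposite sign. DESeq2 called 40 of all genes, limma's voom 4 and edgeR within the second file-number set 6. Leaving out each library gave 0 to 1 (1 without wild type 3), and log2 differences of -0.11 to 0.05 for the nuclear sum, -0.03 to 0.24 for the mitochondrial sum and 0.01 to 0.26 for their ratio. The mitochondrial sum moved to 0.46 within the first set and was -0.16 within the second. Without wild type 2, 12 of 36 nuclear members lay below 0 (median 0.04), and without wild type 1, 29 did (median -0.12, 6 with unadjusted p under 0.05, against 5.82% of all genes). Without deletion 2, 4 of 6 mitochondrial members lay below 0 (median -0.02). The cause of these changes was not tested.

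With the replicate block, edgeR called 0 genes and DESeq2, added after the data were seen, 69, with 0 members; the nuclear and mitochondrial sums were -0.07 and 0.15 and the ratio 0.22, and the block changed no call of a member. With the block the sign turned for mt-Nd5 (0.015), Ndufv2 (-0.052), Ndufs1 (-0.0027) and Ndufa5 (-0.0052), and with the block in DESeq2 for mt-Nd5 (0.020) and Ndufv2 (-0.047). With the set as a covariate it turned for mt-Nd5 (0.024), Ndufv2 (-0.054), Ndufs1 (-0.00037) and Ndufa5 (-0.014), and with deletion 5 in the second set for mt-Nd5 (0.017). With voom it turned for Ndufs1 (-0.031) and Ndufa6 (0.012).

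Within the first set the sign turned for mt-Nd5 (0.14) and Ndufs8 (0.045). Within the second it turned for mt-Nd1 (-0.17), mt-Nd2 (-0.19), mt-Nd4 (-0.070), mt-Nd6 (-0.066), Ndufv2 (-0.13), Ndufs1 (-0.14) and Ndufa5 (-0.070). Within the second with deletion 5, added after the data were seen, it turned for mt-Nd1 (-0.13), mt-Nd2 (-0.028), Ndufs1 (-0.069), Ndufa4 (0.017), Ndufb2 (0.013) and Ndufa6 (0.079).

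With each library left out in turn, the log2 fold change ranged from -0.012 to 0.27 for mt-Nd1, -0.071 to 0.14 for mt-Nd4, -0.12 to 0.10 for mt-Nd5, -0.037 to 0.29 for mt-Nd6, -0.21 to 0.021 for Ndufv1, -0.039 to 0.10 for Ndufv2, -0.035 to 0.087 for Ndufs1, -0.13 to 0.059 for Ndufs8, -0.12 to 0.060 for Ndufa4, -0.15 to 0.076 for Ndufb2 and -0.090 to 0.036 for Ndufa6. The filter on low counts kept mt-Nd4l, with 2 to 18 counts per library, out of the main test.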
